A study of Mus musculus with 8 samples.

Results

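The genes of the pre-T cell receptor (pre-TCR) and of the first steps of its signal, 10 in number, were followed through double-negative thymocytes: Ptcra, Cd3e, Cd3d, Cd3g, Cd247, Lck, Fyn, Zap70, Lat and Lcp2. They were taken by symbol, and all 10 were among the 15653 genes of the expression matrix. Wild-type cells (WT) were of strain C57BL/6J, and the others were from mice with the GSK3B Ser389Ala knock-in (KI), which replaces a serine of the kinase GSK3β by alanine. The age and number of mice, and whether a library pools mice, are not given in the sources used here. From each genotype DN3 cells (CD44-, CD25+) and DN4 cells (CD44-, CD25-) were sorted after magnetic depletion of CD4, CD8, CD11b, MHC class II and κ chain bearing cells, and each sort gave 1 library of 5′ single-cell expression and 1 of T cell receptor sequence. The knock-in alters a residue, so the level of its transcript cannot check the genotype label.

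The pre-TCR forms when a newly rearranged β chain pairs with the invariant pre-TCR α chain, encoded by Ptcra, and it reaches the surface with the CD3 chains (Cd3e, Cd3d, Cd3g) and the ζ chain (Cd247), which carry the signalling motifs. The kinases Lck and Fyn phosphorylate these motifs, Zap70 docks on them, and Zap70 in turn phosphorylates the adaptors LAT (Lat) and SLP-76 (Lcp2), on which the calcium and Ras branches assemble. A working pre-TCR at the DN3 stage drives β-selection, the proliferation and passage to DN4; Ptcra itself depends on Notch and on E proteins, transcription factors that bind the E-box, CANNTG.

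Promoter sequence is shown for the members whose levels ranged furthest over the clusters (Ptcra and Zap70) and for Cd3g and Cd3d, neighbours on chromosome 9 (GRCm38, genes at chr9:44969572-44980431 and chr9:44981786-44987339) that face away from each other with start sites 1355 bases apart. Each line gives the 250 bases before the start site from RefSeq (GRCm38.p6), 5′ to 3′ on the gene's strand, with matches to CANNTG, a palindromic pattern that reads the same on the other strand, in capitals. The windows are chr17:46763713-46763962 (minus strand) for Ptcra, chr1:36761548-36761797 (plus strand) for the first of 3 Zap70 start sites, chr9:44980432-44980681 (minus strand) for Cd3g and chr9:44981536-44981785 (plus strand) for Cd3d.
Ptcra: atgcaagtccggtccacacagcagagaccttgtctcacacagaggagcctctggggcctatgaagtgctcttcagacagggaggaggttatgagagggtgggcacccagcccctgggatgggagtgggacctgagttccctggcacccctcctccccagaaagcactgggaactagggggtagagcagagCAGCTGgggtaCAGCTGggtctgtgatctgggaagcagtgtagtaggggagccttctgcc
Zap70: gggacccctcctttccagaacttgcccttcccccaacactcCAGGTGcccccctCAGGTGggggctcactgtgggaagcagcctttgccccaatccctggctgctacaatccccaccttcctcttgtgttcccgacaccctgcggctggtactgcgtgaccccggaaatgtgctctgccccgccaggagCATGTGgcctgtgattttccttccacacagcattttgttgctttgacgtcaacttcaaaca
Cd3g: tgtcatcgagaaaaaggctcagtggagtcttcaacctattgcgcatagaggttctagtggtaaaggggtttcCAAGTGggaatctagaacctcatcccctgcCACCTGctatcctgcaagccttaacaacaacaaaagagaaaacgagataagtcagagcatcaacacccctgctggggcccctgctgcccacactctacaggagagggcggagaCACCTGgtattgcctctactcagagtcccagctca
Cd3d: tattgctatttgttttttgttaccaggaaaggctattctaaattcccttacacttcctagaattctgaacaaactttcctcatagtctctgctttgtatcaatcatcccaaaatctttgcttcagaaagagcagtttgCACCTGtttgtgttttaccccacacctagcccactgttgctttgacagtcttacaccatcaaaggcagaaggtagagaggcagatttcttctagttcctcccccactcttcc
The Ptcra window held 2 matches to CAGCTG, a form of CANNTG and its own reverse complement. Among 32536 windows of this length, 13.1% held at least 1 CAGCTG and 1.27% at least 2. The Zap70 and Cd3g windows held 3 CANNTG matches each, as did 12.2% of all windows at that number or more, and in each of them 2 were CACCTG or its reverse complement CAGGTG, as in 2.07% of windows at 2 or more. The Cd3d window held 1 match, of the form CACCTG. Of all windows, 66.2% had at least 1 CANNTG. All 10 members matched at least 1 window. A match describes these letters only. In the annotation of the same build (GENCODE), Ptcra lies at chr17:46755663-46763712 and Zap70 at chr1:36761798-36782818; of the others, Cd3e lies at chr9:44998740-45009627, Cd247 at chr1:165788681-165877277, Lck at chr4:129548344-129573641, Fyn at chr10:39368855-39565381, Lat at chr7:126363824-126369570 and Lcp2 at chr11:34046920-34092295.

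The DN3 sort gave 2885 cells of WT and 3298 of KI and the DN4 sort 1477 and 2577, with between 16411164 and 30402236 unique molecular identifiers (UMIs) a library, and no 2 libraries shared more than 17 cell barcodes. With 1 library per group there is no replicate spread and no test: values are UMI counts of summed cells scaled to their total (CPM), each ratio has a 95% interval that covers counting error only, and a gene counts as apart when its ratio is at least 2-fold and it reaches 20 CPM on either side. The deposited clusters were checked against markers. Cluster 0 held mostly KI and cluster 1 mostly WT cells, so they were summed; they had Il2ra (CD25) at 639 and 660.5 CPM and are pre-selection DN3-like. Clusters 3 and 4, with Top2a at 144 and 618 CPM, held cycling cells with productive β chains. Cluster 2 was γδ T-like: of the 9 γδ markers Trdc, Trdv5, Sox13, Maf and Blk were highest there of all 10 clusters (Trdc at 526, Trdv5 at 443 and Sox13 at 134 CPM), while the γ constant genes were highest in cluster 1. Cluster 5 had both αβ receptor chains and NK or NKT markers (Il2rb at 555 CPM) and keeps its number, as do clusters 6 and 7. Markers of B cells, macrophages, red cells and fibroblasts were near 0 (over the 10 clusters Cd79a was at most 0.652 CPM, Klf1 at most 0.623 and Col1a1 at most 0.652, and Csf1r reached 6.44 CPM in the small cluster 8). Lyz2 was at 29.5 and 23.3 CPM and Epcam at 302 and 209.6 CPM in clusters 0 and 1, where Ptcra was also high. The part of such cells in the results was not tested.

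Ptcra, the chain that defines the pre-TCR, was far lower in the DN4 sort. It was read at 408 and 359 CPM in the DN3 libraries of WT and KI and 69.9 and 62.4 CPM in their DN4 libraries. In a library sum, fewer cells of a type and less RNA per cell cannot be told apart. Both DN3 libraries lay well above both DN4 libraries, and the log2 ratio of DN4 over DN3 was −2.55 (interval −2.63 to −2.46) in WT and −2.53 (interval −2.60 to −2.45) in KI. The CD3 chains stood in the same order. Cd3g was at 2665 and 2565 CPM in the DN3 libraries of WT and KI and 927 and 872 CPM in their DN4 libraries, a log2 ratio of −1.52 in WT and −1.56 in KI. Cd3e was at 1739.8 and 1679 CPM in the DN3 libraries of WT and KI and 1005 and 842 CPM in their DN4 libraries, and Cd3d at 1336 and 1269 CPM in the DN3 libraries of WT and KI and 786 and 730.4 CPM in their DN4 libraries; these were lower in DN4 as well, Cd3e by 1.73-fold in WT and 1.99-fold in KI, and Cd3d by 1.70-fold and 1.74-fold. Cd247, the ζ chain, did not follow them: it was at 336 and 295 CPM in the DN3 libraries of WT and KI and 409 and 323 CPM in their DN4 libraries, so that KI DN4 lay below WT DN3 while WT DN4 was the highest, with log2 ratios of 0.29 in WT and 0.13 in KI.

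Among the kinases, Lck was the lower and Zap70 the higher in DN4. Lck was at 1399 and 1280.2 CPM in the DN3 libraries of WT and KI and 719 and 714 CPM in their DN4 libraries (log2 ratio −0.96 in WT and −0.84 in KI). Zap70, the kinase that docks on phosphorylated CD3 and ζ, was at 44.6 and 52.2 CPM in the DN3 libraries of WT and KI and 153 and 129 CPM in their DN4 libraries, 3.43-fold higher in WT and 2.46-fold higher in KI. Fyn, the second Src-family kinase of the receptor, was read at 12.3 and 14.6 CPM in the DN3 libraries of WT and KI and 34.5 and 26.6 CPM in their DN4 libraries, low in each but higher in both DN4 libraries. The adaptor gene Lat was at 1451 and 1203 CPM in the DN3 libraries of WT and KI and 812 and 719.7 CPM in their DN4 libraries, lower in DN4 of both genotypes. Lcp2, which encodes SLP-76, was at 139 and 112 CPM in the DN3 libraries of WT and KI and 148 and 114 CPM in their DN4 libraries and separated by genotype rather than by stage. In all, 4 of the 10 members were apart in WT (Ptcra and Cd3g lower, Zap70 and Fyn higher), against 8.23% of the 5987 genes tested, and 3 of 10 were apart in KI (the same without Fyn, which at 26.6 CPM was 1.83-fold higher), against 7.73%.

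**Figure D1:**
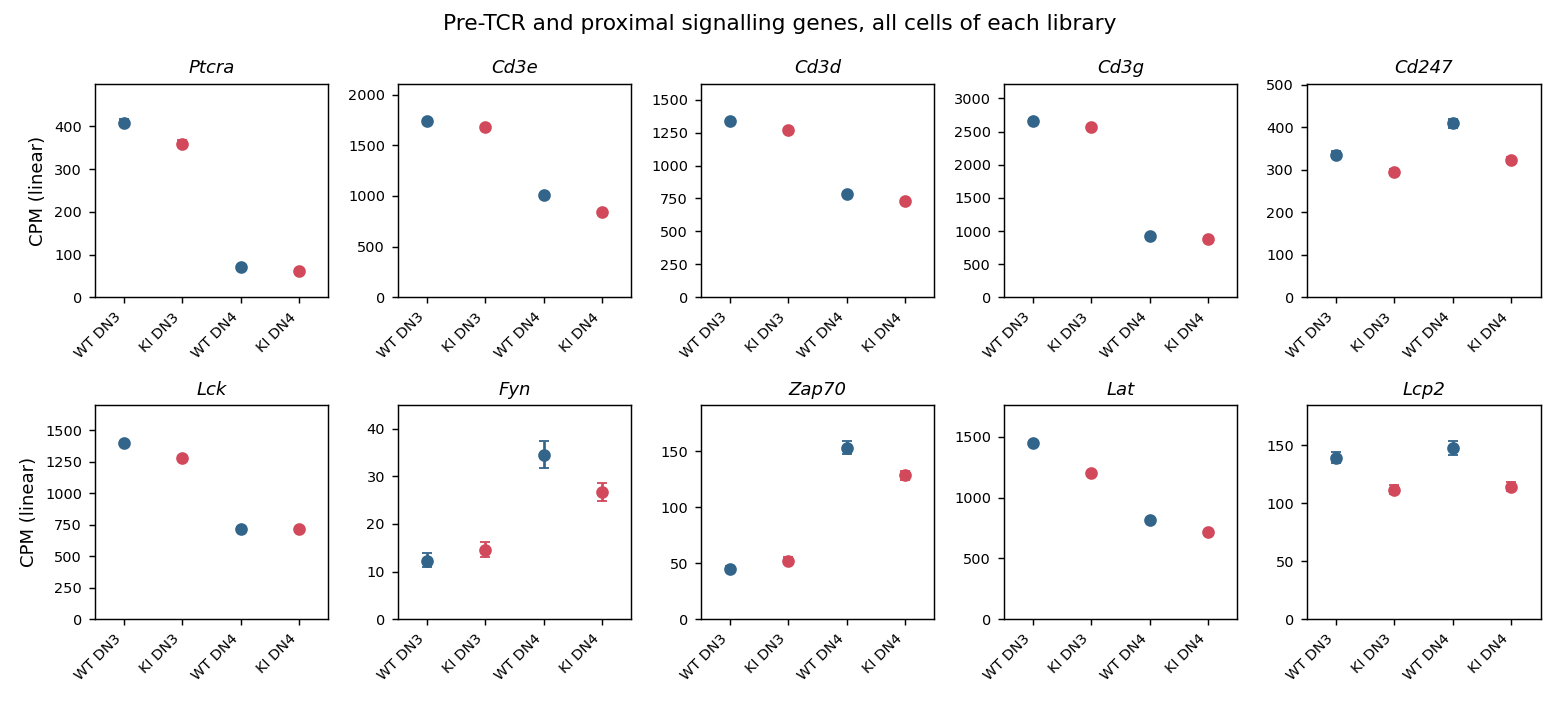
Level of each gene in the 4 expression libraries, in CPM of all cells of the library on linear axes from 0; bars are 95% intervals of counting error, often smaller than the point, and colour gives the genotype (blue WT, red KI). Ptcra goes from 408 and 359 CPM in DN3 to 69.9 and 62.4 in DN4, while Zap70 stands higher in both DN4 libraries.

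The DN4 sort held clusters that the DN3 sort all but lacked. Cluster 2 made up 40.3% of the WT and 37.9% of the KI cells in it, cluster 5 21.9% and 12.7%, and cluster 7 1.49% and 2.91%; in the DN3 sort these clusters held at most 0.243% of cells each. The 9 γδ T markers summed to 1143 and 933 CPM in WT and KI DN3 and to 803 and 557 CPM in DN4, so this sum did not follow cluster 2; the γ constant genes in it were at 269 to 385 CPM in clusters 0 and 1. The 8 measured NK, innate lymphoid and NKT markers summed to 136 and 103 CPM in DN3, where 2 and 3 of them were at 0, and to 253 and 163 CPM in DN4. With clusters 2, 5 and 7 left out, the places of 3 genes changed. Fyn went to log2 ratios of −0.14 in WT and −0.32 in KI, below 0 in both, at 14.6 CPM or less and so under the 20 CPM minimum; Cd247 went to −0.66 in WT and −0.70 in KI, and Lcp2 to −0.91 in WT and −0.57 in KI, from values near or above 0. Zap70 stayed higher at 1.01 in WT and 0.76 in KI, and Ptcra lower at −1.93 in WT and −2.12 in KI. In CPM the CD3 chains were then each more than 2-fold lower. Cd3e was at −1.18 in WT and −1.30 in KI and Cd3d at −1.27 in WT and −1.15 in KI. Of the 9 members then tested, 5 were apart in WT, where 14.8% of genes were, and 4 in KI, where 13.3% were. The DN4 cells left were mostly of clusters 3 and 4, with medians of 20228 UMIs in WT and 19253 in KI against 5922 and 5492 in DN3. Counted per cell, Cd3e, Cd3d, Cd247 and Lcp2 had more UMIs in DN4 of both genotypes, for example Cd247 with 4.23 against 2.62 in WT. Ptcra and Cd3g had fewer, Cd3g with 14.4 against 20.9 in WT and 14.1 against 19.9 in KI.

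Clusters 8 and 9 had fewer than 50 cells in each library and were left out here. Across the other deposited clusters Ptcra was highest in clusters 0 and 1. It was lower in clusters 6, 3 and 4 and near 0 in clusters 2, 5 and 7. In clusters 0 and 1 it was at 628 CPM in WT and 622 CPM in KI. In cluster 6, where 71.2% of WT and 68.3% of KI DN3 cells had a productive β chain, it was at 137 and 162 CPM. In clusters 3 and 4 together it was at 107 and 86.6 CPM in the DN3 sort and at 107 and 81.8 CPM in the DN4 sort, WT first. In CPM the intervals of cluster 6 lay above those of clusters 3 and 4 in each genotype. The summed WT cells of clusters 3 and 4 did not differ between the 2 sorts beyond counting error, though single phases of cluster 4 did. In clusters 2 and 5 it was all but absent: 1 UMI in 595 WT and 2 in 976 KI cells of cluster 2, 1 in 324 WT and 0 in 328 KI cells of cluster 5, and 0 in the 75 KI cells of cluster 7.

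In single cells thinned to 2000 UMIs each, so that depth was equal, Ptcra was again far more often seen in clusters 0 and 1, while cluster 6 did not stand apart from clusters 3 and 4. A Ptcra UMI was then seen in 64.6% (exact binomial interval 62.6 to 66.6) of WT and 65.8% (63.9 to 67.7) of KI cells of clusters 0 and 1, after 21 and 37 shallower cells were left out; without thinning the shares were 86.4% and 86.3%. In cluster 6 the thinned shares were 19.4% in WT and 17.9% in KI, and in clusters 3 and 4 taken singly they ran from 13.0% to 20.2% over the libraries. In cluster 2 it was seen in 0 of 585 WT cells and 1 of 938 KI cells. For the count of 0, a limit of 3 cells allows a share of up to 0.513%. Median depths before thinning were 5252 and 4297.5 UMIs in cluster 2 against 5446 and 4864 in clusters 0 and 1. Zap70 ran the other way, from 4.12% and 3.87% of cells in clusters 0 and 1 to 12.4% and 14.8% in cluster 6 and 45.5% and 43.5% in cluster 2.

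**Figure D2:**
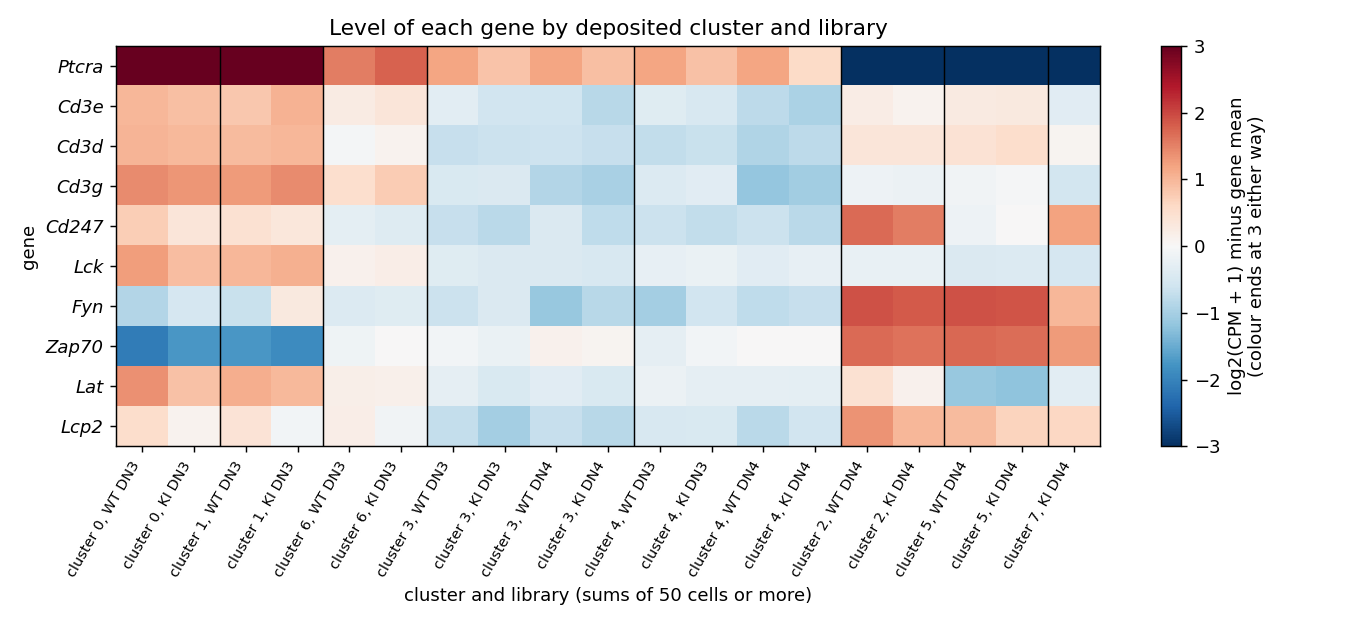
Each gene (rows) in the 19 sums of at least 50 cells of a cluster and library (columns), as log2(CPM + 1) minus the mean of the gene over the columns; red is above and blue below that mean, and the colour ends at 3 either way. Ptcra is highest in clusters 0 and 1 and near 0 CPM in clusters 2, 5 and 7, where Zap70 and Fyn are at their highest.

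Between the pre-selection clusters 0 and 1 and the cycling clusters 3 and 4 of the same DN3 library, most of the receptor complex was lower in CPM and Zap70 alone was higher past 2-fold. Ptcra was at 107 against 628 CPM in WT and 86.6 against 622 CPM in KI, 5.86-fold lower in WT and 7.19-fold lower in KI. Cd3g was at 1099 against 3583 CPM in WT and 1145 against 3677 CPM in KI, and the log2 ratios of the receptor chains were −1.70 in WT and −1.68 in KI for Cd3g, −1.68 in WT and −1.64 in KI for Cd3d, −1.17 in WT and −1.40 in KI for Cd3e and −1.11 in WT and −1.12 in KI for Cd247. Lck (−1.28 in WT and −1.19 in KI) and Lat (−1.30 in WT and −1.19 in KI) were lower to a like degree, and Lcp2 was at −0.97 in WT and −0.67 in KI, short of 2-fold. Zap70 was at 71.8 against 23.9 CPM in WT and 77.3 against 24.1 CPM in KI, 3.01-fold higher in WT and 3.21-fold higher in KI. Fyn stayed under 20 CPM on both sides and was not counted. In each genotype 8 of the 9 members tested were apart, where 31.4% of 6251 genes were in WT and 32.4% of 6221 in KI. The clusters are the authors' and divide these same cells, so the differences describe the clusters.

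Cells of clusters 3 and 4 were much larger in RNA, with medians of 20938 UMIs in WT DN3 and 19857 in KI DN3 against 5446 and 4864 in clusters 0 and 1, and counted per cell most of these ratios turned over. UMIs per cell of Ptcra were 2.27 against 3.57 in WT and 1.75 against 3.16 in KI, still lower. Zap70 UMIs per cell were 1.52 against 0.136 in WT and 1.56 against 0.122 in KI. The other 8 members had more UMIs per cell in clusters 3 and 4, for example Cd3e with 20.7 against 12.5 in WT and 17.8 against 11.8 in KI and Cd3g with 23.3 against 20.4 in WT and 23.1 against 18.7 in KI. On this scale the median of all genes tested was 1.70 in WT and 1.82 in KI in log2, and of the 9 members tested all but Zap70 had smaller ratios than that. Ptcra was thus lower and Zap70 higher in clusters 3 and 4 both in CPM and per cell. Scaling by trimmed means moved the median of all genes from −0.19 to 0.13 in WT and from −0.17 to 0.18 in KI, and left 6 and 5 members apart, with Cd3e in WT (−0.89), Cd247 in both, and Lck and Lat in KI no longer 2-fold lower.

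**Figure D3:**
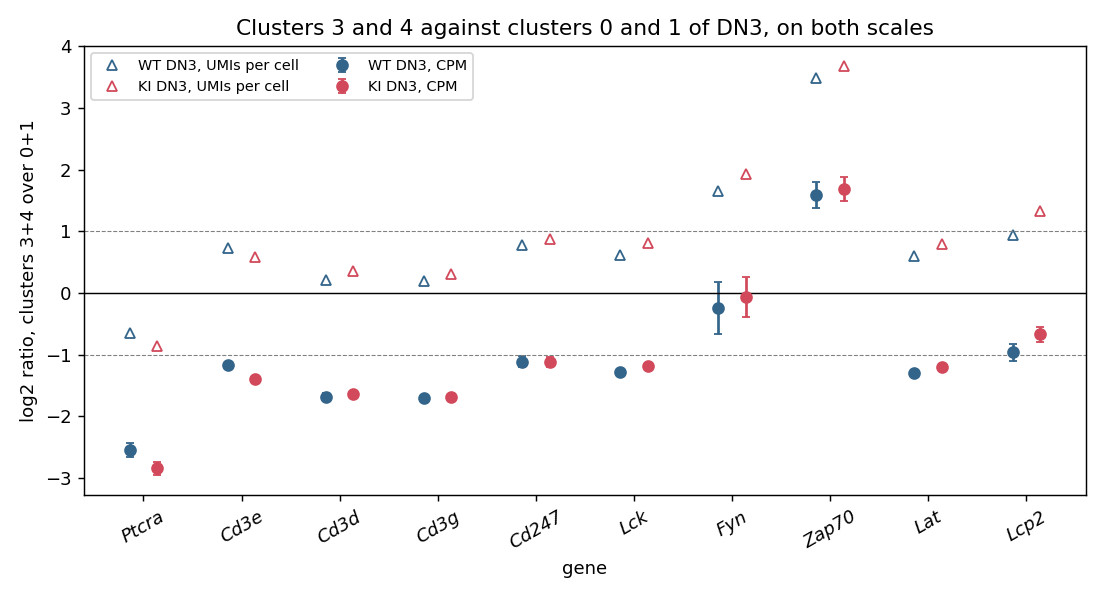
Log2 ratio of clusters 3 and 4 over clusters 0 and 1 in each DN3 library, for each gene, in CPM (filled circles, with 95% intervals of counting error) and in UMIs per cell (open triangles, no interval); dashed lines mark 2-fold. Ptcra lies below 0 and Zap70 above 0 on both scales, while the CD3 chains, Cd247, Lck, Lat and Lcp2 change sign between them.

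Cluster 6 stood between the other DN3 groups, with 68.7% of its WT and 76.2% of its KI cells called S phase by the authors. Against clusters 0 and 1, Ptcra was 4.58-fold lower in WT and 3.83-fold lower in KI, while Zap70 was already 3.20-fold higher in WT and 3.51-fold higher in KI. The CD3 chains, Cd247, Lck and Lat had log2 ratios between −1.02 (Cd3d in WT) and −0.54 (Cd3e in KI). Median UMIs were 10962 and 9200.5 in cluster 6, and counted per cell all of these but Cd3d in WT were above clusters 0 and 1, at most 0.44 in log2 (Cd3e in WT); Ptcra stayed lower and Zap70 higher. Thus 3 members were apart in WT (Ptcra, Cd3d and Zap70), against 20.7% of 6134 genes, and 2 in KI (Ptcra and Zap70), against 20.6% of 6106. Zap70 was at 76.3 and 84.6 CPM in cluster 6 and at 71.8 and 77.3 CPM in clusters 3 and 4 of DN3, values whose intervals overlapped in each genotype. In CPM, Ptcra and the CD3 chains were lower in clusters 3 and 4 than in cluster 6, but UMIs per cell of Ptcra were 1.56 in cluster 6 of each genotype and 2.27 and 1.75 in clusters 3 and 4.

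The receptor libraries allowed the β chain itself to be set beside these genes. In clusters 0 and 1, 155 of 2255 WT and 118 of 2469 KI cells had a productive β chain (TRB) contig. Those cells had less Ptcra: 381 against 648 CPM in WT and 410.4 against 634 CPM in KI, cells with against cells without, log2 ratios of −0.77 (interval −0.92 to −0.62) in WT and −0.63 (interval −0.81 to −0.46) in KI. Cd3g was lower in them too, −0.36 in WT and −0.40 in KI, and so was Cd247, −0.28 in WT and −0.50 in KI. Cd3e had log2 ratios of 0.00 in both, at 2194 against 2189.8 CPM in WT and 2326 against 2322 CPM in KI. Zap70 was at 33.2 against 23.1 CPM in WT, where the interval of the log2 ratio ran from −0.05 to 1.06, and at 38.2 against 23.3 CPM in KI, where it ran from 0.08 to 1.30. No tested member was 2-fold apart, and 1.25% of genes in WT and 1.70% in KI were. Median depth was 5689 against 5424 UMIs in WT and 5285 against 4836 in KI, and G1 cells made up 96.1% against 96.7% and 91.5% against 96.8%.

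Cluster 6 showed the larger gap. There 173 WT and 198 KI cells with a productive TRB contig had Ptcra at 82.0 against 284 CPM (70 cells without) in WT and 102 against 285 CPM (92 cells without) in KI, 3.47-fold lower in WT and 2.80-fold lower in KI. Ptcra was the 1 member apart in each genotype, against 2.66% of genes in WT and 2.5% in KI; this comparison was added after the data were seen. Cd3g was at −0.58 in WT and −0.43 in KI and Cd247 at −0.43 in WT and −0.26 in KI, while Lck (0.05 in WT and −0.02 in KI) and Lat (0.02 in WT and 0.06 in KI) lay near 0. Zap70 gave −0.32 (interval −0.74 to 0.12) in WT and 0.31 (interval −0.11 to 0.74) in KI, with both intervals across 0. A cell with no contig may have a chain that was not recovered. The share of G1 cells was 33.5% against 24.3% in WT and 27.3% against 15.2% in KI, and the part of cycling in the ratio was not tested.

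**Figure D4:**
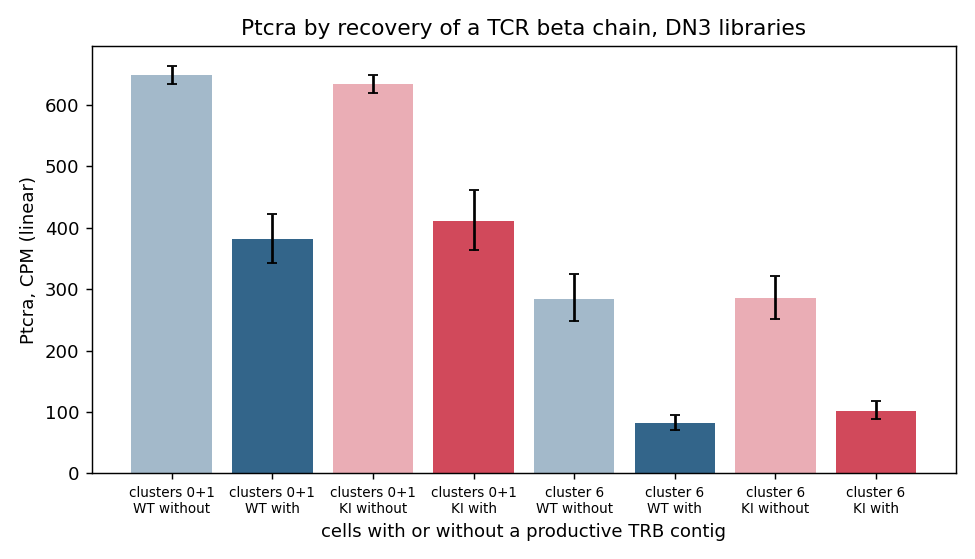
Ptcra in DN3 cells without (pale) and with (full colour) a productive TRB contig, in clusters 0 and 1 and in cluster 6, in CPM on a linear axis from 0; blue is WT, red is KI and bars are 95% intervals of counting error. Ptcra is lower in cells with a contig in each of the 4 pairs, from 648 to 381 CPM in WT cells of clusters 0 and 1.

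The α chain, whose rearrangement follows β-selection, had a productive contig in 10 WT and 13 KI cells of clusters 3 and 4 of the DN4 sort. Ptcra was at 51.9 against 109 CPM in WT, cells with against cells without, on 12 UMIs, and at 74.6 against 81.9 CPM in KI. The log2 ratios were −1.07 (interval −2.02 to −0.26) in WT and −0.14 (interval −0.83 to 0.48) in KI. Ptcra was the 1 member apart in WT, where 11.1% of genes were, and 0 were apart in KI, where 8.32% were. Zap70, at 0.94 (interval 0.43 to 1.40) in WT and 0.30 (interval −0.27 to 0.82) in KI, was higher in WT cells with the chain, again on few cells.

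The cycling clusters 3 and 4 were found in both sorts, so the stages could be set against each other within them, though their mix differed. Clusters 3 and 4 held 96 and 213 cells in WT DN3 and 242 and 251 in WT DN4. In KI they held 138 and 347 cells in DN3 and 767 and 393 in DN4, and the part of this mix in the ratios was not tested. In both clusters together the DN4 excess of Zap70 was 0.29 (interval 0.13 to 0.45) in WT and 0.17 (interval 0.05 to 0.29) in KI. Ptcra was at 0.00 (interval −0.13 to 0.14) in WT and −0.08 (interval −0.20 to 0.04) in KI, with intervals that include 0. Taken singly in KI, Ptcra in cluster 4 was at 86.8 CPM (interval 80.2 to 93.8) in DN3 and 70.8 CPM (interval 65.4 to 76.6) in DN4. In cluster 3 of KI it was at 85.7 CPM in DN3 and 88.9 CPM in DN4. In WT it was between 107 and 108 CPM in each cluster and sort over all phases. By deposited phase, it was at 95.7 CPM (interval 84.5 to 108) in WT S cells of cluster 4 in DN3 and 126 (115 to 138) in DN4. WT G2M cells of cluster 4 went the other way, at 122 CPM (interval 108 to 139) and 78.1 (67.2 to 90.2). S cells of cluster 3 were at 114 and 112 CPM in WT. In KI, cluster 4 was at 84.8 and 83.5 CPM in S and 89.0 and 62.6 CPM in G2M, DN3 first. Over both clusters together the CD3 chains parted. Cd3g was still lower in DN4, 720.2 against 1099 CPM in WT and 731 against 1145 CPM in KI (DN4 against DN3), at log2 ratios of −0.61 (interval −0.66 to −0.56) in WT and −0.65 (interval −0.68 to −0.61) in KI. Cd3e was at −0.35 in WT and −0.38 in KI, while Cd3d was at −0.05 in WT and −0.07 in KI. No member was 2-fold apart, against 1.02% of genes in WT and 1.46% in KI. In the same cells the coreceptor gene Cd8b1 was at 237 against 13.4 CPM in WT and 174 against 13.7 CPM in KI, DN4 against DN3, and Trac, the α chain constant gene, at 23.6 against 6.27 CPM and 26.1 against 9.29 CPM. The γ chain constant genes were lower together; Tcrg-C1 was at 43.4 against 187 CPM in WT and 31.1 against 121 CPM in KI.

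In the γδ T-like cluster 2 of the DN4 sort, all members but Ptcra were higher than in clusters 3 and 4 in CPM, though most were not when counted per cell. Ptcra was the exception with 1 UMI in WT and 2 in KI, log2 ratios of −8.64 (interval −13.95 to −6.16) in WT and −7.71 (interval −10.76 to −5.86) in KI. Fyn was the furthest up, at 79.9 against 10.4 CPM in WT and 76.1 against 11.6 CPM in KI. Cd247 was at 1006 against 209 CPM in WT and 885 against 179 CPM in KI, Lcp2 at 317 against 73.3 CPM in WT and 251 against 75.0 CPM in KI and Zap70 at 272 against 87.7 CPM in WT and 261 against 86.9 CPM in KI. The CD3 chains lay close to 2-fold higher, Cd3d at 1.15 in WT and 1.09 in KI, Cd3e at 0.93 in WT and 0.98 in KI and Cd3g at 0.88 in WT and 0.82 in KI. Lat was at 0.77 in WT and 0.53 in KI and Lck at 0.16 in WT and 0.18 in KI, the smallest difference of the 10. In each genotype 6 of 10 members were apart (Ptcra lower; Fyn, Cd247, Lcp2, Zap70 and Cd3d higher), against 39.0% and 38.2% of genes.

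Cluster 5, whose cells mostly had productive α and β chains, shared part of this pattern. Fyn was at 80.4 against 10.4 CPM in WT and 78.5 against 11.6 CPM in KI, Zap70 at 279 against 87.7 CPM in WT and 271 against 86.9 CPM in KI and Lcp2 at 240.0 against 73.3 CPM in WT and 197 against 75.0 CPM in KI. Ptcra was at 1 UMI in WT, a log2 ratio of −7.47 (interval −12.78 to −4.99), and at 0 in KI, at least 38.6-fold lower by a floor of 3 UMIs over the cluster. The adaptor gene Lat parted from cluster 2: at 408 and 387 CPM it was below clusters 3 and 4 at log2 ratios of −0.82 (interval −0.94 to −0.71) in WT and −0.81 (interval −0.94 to −0.69) in KI, and below its 1230.2 and 979 CPM in cluster 2. Cd247 parted likewise, at 278 and 309 CPM against 1006 and 885 CPM in cluster 2. Members apart from clusters 3 and 4 numbered 5 in WT, against 39.1% of genes, and 6 in KI, against 37.3%; Cd3e, at 0.97 and 1.16, made the difference. Cells of clusters 2 and 5 had medians of 3767.5 to 5252 UMIs, against 19436 and 20697 in clusters 3 and 4, and per cell the median gene was at −1.58 in WT and −1.72 in KI in cluster 2. Counted per cell, Zap70, the 3 CD3 chains, Lck and Lat were below clusters 3 and 4 in both clusters and both genotypes (Zap70 in cluster 2 at −0.13 in WT and −0.31 in KI, Cd3e at −0.83 and −0.92), while Fyn remained above at 1.17 in WT and 0.82 in KI in cluster 2 and 0.89 in WT and 0.58 in KI in cluster 5.

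Other genes of the pathway were read from lists of 25 kinases, adaptors and effectors and 19 inhibitors. From clusters 0 and 1 to clusters 3 and 4 of DN3, 10 of 20 measured kinases, adaptors and effectors were at least 2-fold lower in WT and 8 of 19 in KI, with 0 higher, where 20% and 19.9% of all genes were lower, and the list medians were −1.02 and −0.95 beside −0.19 and −0.17 over all genes. Of the inhibitors, 6 of 15 and 6 of 16 were lower, again with 0 higher, beside the same shares of all genes. Cblb, a ubiquitin ligase that restrains receptor signals, was at 18.3 against 99.2 CPM in WT, and Pag1, the membrane adaptor that recruits the kinase Csk, at 46.2 against 246 CPM. Tec, a kinase upstream of phospholipase Cγ, was at 5.20 against 24.0 CPM. Per cell the median gene was higher, as given above, so these are shares of the cell's RNA. In cluster 6 against clusters 0 and 1, 2 of 21 kinases, adaptors and effectors were at least 2-fold higher and 4 lower in WT. In KI these were 2 and 4 of 20. Of the inhibitors, 1 of 16 was higher and 4 lower in WT, and 1 and 3 of 17 in KI. Over all genes, 8.09% and 8.53% were higher and 12.7% and 12.1% lower. Among the few higher was Cd5, a receptor that dampens the TCR signal and is known to track its strength. It was at 71.2 against 3.43 CPM in WT and 47.9 against 2.39 CPM in KI. Cd6, a related receptor, was at 63.9 against 7.25 CPM and 54.4 against 8.22 CPM.

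In cluster 2 against clusters 3 and 4 the lists stood the other way. Of the kinases, adaptors and effectors, 15 of 22 were at least 2-fold higher in WT and 16 of 22 in KI, with 0 lower. Of the inhibitors, 12 of 16 and 12 of 18 were, also with 0 lower. Over all genes, 23.8% in WT and 23.3% in KI were at least 2-fold higher. Txk, a Tec-family kinase, was at 143 against 7.09 CPM in WT, Prkcq, the protein kinase C of the T cell synapse, at 253 against 19.3 CPM, and Rasgrp1, which activates Ras, at 344 against 36.8 CPM. Cd2, an adhesion receptor of T cells, was at 266 against 24.8 CPM. Per cell the median gene was lower in cluster 2, as given above, so these too are shares of the cell's RNA.

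The knock-in was then set against WT. Over whole libraries no member was 2-fold apart in DN3, where 0.69% of genes were, or in DN4, where 0.662% were. The largest differences were those of Lcp2, lower in KI by log2 ratios of −0.32 (interval −0.39 to −0.25) in DN3 and −0.37 (interval −0.45 to −0.29) in DN4, and of Fyn in DN4, at −0.37 (interval −0.53 to −0.21). Cd247 was at −0.19 and −0.34, Lat at −0.27 and −0.17. Lck lay at −0.13 and −0.01. Because the libraries differ in their mix of clusters, the ratios were taken again within clusters, and there too no member was 2-fold apart; the share of all genes apart was 0.62% in clusters 0 and 1, 0.845% in cluster 6, 0.702% and 0.486% in clusters 3 and 4 of DN3 and DN4, 0.828% in cluster 2 and 1.85% in cluster 5.

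Ptcra was lower in KI in the cycling clusters, while in clusters 0 and 1 the interval of its ratio included 0. In clusters 0 and 1 it was at 622 CPM in KI and 628 in WT, a log2 ratio of −0.01 (interval −0.06 to 0.03). In clusters 3 and 4 it was at 86.6 CPM in KI and 107 in WT in the DN3 sort, −0.31 (interval −0.45 to −0.16), and at 81.8 and 107 CPM in the DN4 sort, −0.39 (interval −0.50 to −0.28). Of all genes tested there, 6.92% in DN3 and 5.57% in DN4 had a ratio as low or lower. Within the 6 sets of a sort, cluster and deposited phase that held at least 50 cells of each genotype, Ptcra was lower in KI in 6, from −0.60 to −0.17, and 4 of the 6 intervals lay below 0. These sets divide the same libraries and are not replicates, and no share over all genes is given for such counts. In cluster 6 the ratio had the other sign, 0.24 (interval 0.04 to 0.44), and its UMIs per cell there were 1.56 in KI and 1.56 in WT. Over the whole DN4 library the Ptcra ratio was −0.16, and it was −0.38 without clusters 2, 5 and 7.

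Cd3e went with Ptcra on a smaller scale. It was at −0.15 (interval −0.20 to −0.10) in clusters 3 and 4 of DN3 and −0.18 (interval −0.22 to −0.14) in DN4, and lower in KI in 6 of the 6 matched sets, each interval below 0, but at 0.08 (interval 0.06 to 0.11) in clusters 0 and 1. Its neighbours Cd3d and Cd3g gave 0.06 and 0.06 in clusters 3 and 4 of DN3 and 0.05 and 0.02 in DN4. Of the other members, Cd247 and Lat were also lower in KI in 6 of the 6 matched sets, with 3 and 2 intervals below 0. Zap70 was lower in 4 sets, Cd3g in 3, Fyn and Lcp2 in 2 and Cd3d and Lck in 1. No share over all genes is given for these counts. In clusters 3 and 4 undivided, 1307 of 5149 genes had intervals below 0 and 985 above in DN4, and 720 and 998 of 5273 in DN3. Lcp2 showed another pattern: it was lower in KI in clusters 0 and 1 (−0.32), 6 (−0.30), 2 (−0.34) and 5 (−0.28), with all 4 intervals below 0, and near 0 in clusters 3 and 4 (−0.02 and 0.03). Lat was lower in KI in clusters 0 and 1 at −0.22 (interval −0.25 to −0.19), in cluster 2 at −0.33 (interval −0.39 to −0.27) and, by less, in clusters 3 and 4 of DN3 (−0.11) and DN4 (−0.09). Cd247 was lower in KI in cluster 2 (−0.19), in clusters 3 and 4 of DN4 (−0.22) and DN3 (−0.11) and in clusters 0 and 1 (−0.10). It was at 0.15 in cluster 5, where the interval included 0. Lck was between −0.07 and 0.05 in every group, and Zap70 between −0.06 and 0.15, each Zap70 interval including 0. Cells of KI had fewer UMIs in these groups, so that the median gene was at −0.17 per cell in clusters 0 and 1, −0.27 in cluster 2 and −0.30 in cluster 5. A difference of this size between 2 libraries cannot be told apart from one between mice or preparations.

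**Figure D5:**
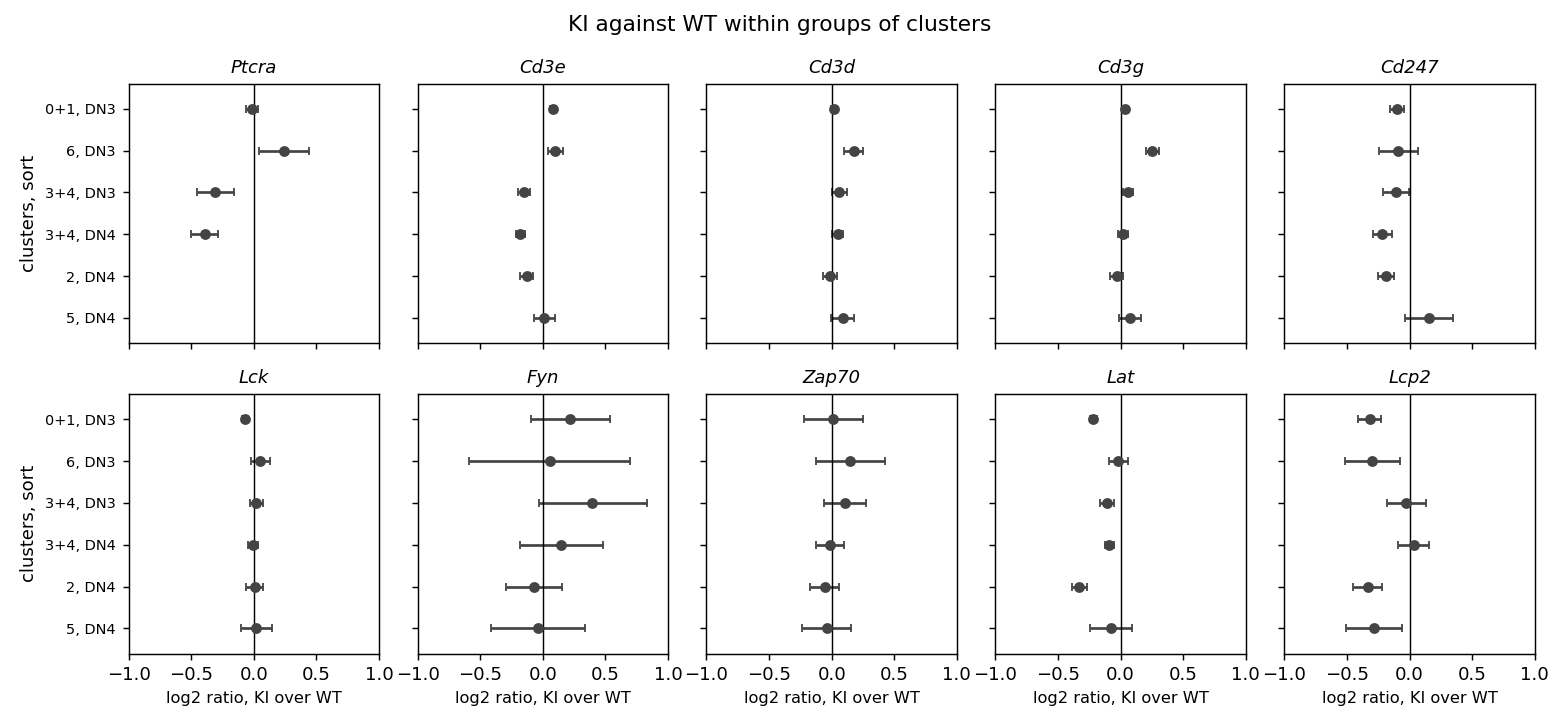
Log2 ratio of KI over WT (x axis, with 95% intervals of counting error) for each gene within groups of clusters of a sort (y axis); Ptcra is left out in clusters 2 and 5, where it had at most 2 UMIs. All points lie within 1 of 0 in log2, Ptcra is below 0 in clusters 3 and 4 of both sorts, and Lcp2 is below 0 in clusters 0 and 1, 6, 2 and 5.

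The genes most like each member were taken by the Pearson correlation of log2(CPM + 1) over the 19 sums of cluster and library, among 7834 genes. The sums share libraries and follow a few kinds of cell, so these values are a description. Closest to Ptcra were Hibadh (0.984), Fam163b (0.982) and Camkv (0.981). For the CD3 chains, Cd3e went with Pcmtd1 (0.979), Nisch (0.978) and Zfp362 (0.973). Cd3d went with mt-Co1 (0.984), Pik3r1 (0.977) and Gch1 (0.975), the first of them a mitochondrial gene, and Cd3g with Tmem191c (0.981), Tm6sf1 (0.978) and Unc93b1 (0.975). Cd247 was nearest Exoc4 (0.951), Arl4c (0.948) and Selplg (0.944). Of the kinases, Lck was nearest Tshz2 (0.980), Dnajc7 (0.975) and Smap2 (0.973). Fyn was nearest Bcl3 (0.976), Lbh (0.976) and Lrp10 (0.974), and Zap70 Ago2 (0.973), Itgb2 (0.972) and Pfn1 (0.962), of which Itgb2 encodes the β chain of an integrin. The adaptor gene Lat was nearest Abi3 (0.967), Etv6 (0.964) and Wdr78 (0.963), and Lcp2 Cd27 (0.973), Atp1b1 (0.971) and Jakmip1 (0.965), of which Cd27 encodes a costimulatory receptor. Among the members, Cd3e went with Cd3g (0.956) and Cd3d (0.947), and Ptcra stood against Zap70 (−0.938) and Fyn (−0.864).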

How the data were processed

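Per the labels, 4 libraries of 5′ single-cell expression and 4 of receptor sequence were made from sorted thymocytes, 1 of each kind per group. The authors deposited 1 table of UMI counts (15653 genes by 10237 cells), a table with the cluster and cell cycle phase of each cell, and contig tables whose UMI counts and productive calls are named in the file headers. The submitters' processing notes name Cell Ranger 3.1.0 and 6.0.1 and mm10; how clusters and phases were made is not given in the sources used here. Counts were summed over the cells of a library, cluster or receptor class and scaled to their total (CPM). Ratios of sums have exact 95% intervals from the conditional binomial, for counting error only, since PCR copies are collapsed but cells of 1 library are not replicates; no p was computed. A gene was tested at 20 CPM or more on either side and counted as apart at 2-fold; a sum of 0 was set to a floor of 3 UMIs. A productive chain was joined by cell barcode within the group. For shares of cells with a UMI, cells were thinned to 2000 UMIs, with a fixed seed, and shallower cells were left out. Likeness used log2(CPM + 1), a pseudocount of 1, over sums of at least 50 cells. No doublet caller was run; leaving out the 5% of cells with most UMIs was an alternative, beside a minimum of 5 CPM, a 1.5-fold threshold, the mean of CPM over cells, scaling factors of edgeR (TMM), G1 cells, contigs of at least 2 UMIs, and leaving out clusters 2, 5 and 7. Depth was 16411164 to 30402236 UMIs a library. The members and gene lists were chosen with earlier results of these data known. Named genes are the 10 members, at most 6 list genes a comparison by size among those 2-fold apart, and the 3 genes most alike. Of 26 comparisons, 23 were in the design and 3 (cluster 6 by β chain in each genotype, and cluster 6 by genotype) were added after the data were seen. Gene positions are from GENCODE on GRCm38 by symbol, and promoters from RefSeq. Some genes of the marker lists were not analysed here. The ratios and intervals were tested on simulated data. Python 3.11.15, numpy 2.4.6, scipy 1.17.1, pandas 2.3.3, R 4.3.3 and edgeR 4.0.16 were used.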

Additional observations from a re-analysis of the deposited data

Results flagged for a closer look

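For Fyn, Zap70, Cd3e and Ptcra the interval of the KI over WT ratio lay above 0 in a set of cells and below 0 in another. In all, 130 pairs of such ratios were compared and 5 were opposite. With 1 library per group the differences between the ratios were not tested. Fyn was at 0.25 (interval 0.02 to 0.48) in DN3 and −0.37 (interval −0.53 to −0.21) in DN4, in log2. Zap70 was at 0.23 (interval 0.11 to 0.35) in DN3 and −0.25 (interval −0.32 to −0.18) in DN4. Within clusters Zap70 lay between −0.06 and 0.15 in the 6 sets of clusters, and Fyn was at 0.22 in clusters 0 and 1, 0.40 in clusters 3 and 4 of DN3, −0.07 in cluster 2, −0.03 in cluster 5 and 0.15 in clusters 3 and 4 of DN4. Clusters 2 and 5, where both genes were highest, made up 40.3% and 21.9% of the DN4 sort in WT but 37.9% and 12.7% in KI. Cd3e was at 0.0845 in clusters 0 and 1 and at 0.10 in cluster 6, but at −0.15 in clusters 3 and 4 of DN3; per cell these were −0.08, −0.14 and −0.22, so the opposite directions were not seen on that scale. Ptcra was at 0.24 in cluster 6 and −0.31 in clusters 3 and 4 of DN3; per cell, the cluster 6 ratio was 0.00.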

How the results depend on the processing

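No paired analysis was possible because each group has 1 library, and for the same reason no replicate could be left out. Counts of members apart kept within 1.5 times the main count in 155 of 174 combinations of comparison and setting. A 1.5-fold threshold gave 8 members in DN4 over DN3 of WT and 8 of KI, 1 and 1 in clusters 3 and 4 between the sorts, 7 (WT) and 6 (KI) in cluster 6 over clusters 0 and 1, 8 in cluster 5 of WT, 1 (WT) and 2 (KI) by β chain in clusters 0 and 1, and 2 (WT) and 1 (KI) by α chain. The mean of CPM over cells gave 5 in DN4 over DN3 of KI. UMIs per cell, added after the data were seen, gave 1 (WT) and 2 (KI) in clusters 3 and 4 over 0 and 1, 3 in cluster 2 of WT and 1 by α chain in KI. TMM scaling gave 5 in clusters 3 and 4 over 0 and 1 of KI, a 5 CPM minimum 1 by β chain in KI, and contigs of at least 2 UMIs 1 by α chain in KI. Of 1210 ratios of single members, 157 changed sign, 87 of them as UMIs per cell, which by construction follows the RNA content of the cells, 25 under TMM, 21 under the mean over cells and 10 without clusters 2, 5 and 7. Among these, 25 had been at least 2-fold apart. Fyn in DN4 over DN3 of WT was −0.14 without clusters 2, 5 and 7, and the other 24 turned as UMIs per cell. In clusters 3 and 4 over 0 and 1 these were, in log2, Cd3e 0.73, Cd3d 0.22, Cd3g 0.19, Cd247 0.79, Lck 0.62, Lat 0.59 in WT, and Cd3e 0.59, Cd3d 0.35, Cd3g 0.31, Cd247 0.87, Lck 0.81, Lat 0.80 in KI. In cluster 2 over clusters 3 and 4 they were Cd3d −0.61, Zap70 −0.13 in WT, and Cd3d −0.81, Zap70 −0.31, Lcp2 −0.16 in KI. In cluster 5 they were Cd3d −0.84, Zap70 −0.38, Lcp2 −0.34 in WT, and Cd3e −1.02, Cd3d −0.94, Zap70 −0.54, Lcp2 −0.79 in KI. For the other changes the cause was not tested. G1 cells alone could not be compared in 14 comparisons with fewer than 50 such cells on a side. Depth limits Fyn, at 10.4 to 15.8 CPM in the sums of clusters 0 and 1, of clusters 3 and 4 and in cluster 6, and Ptcra in clusters 2, 5 and 7.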

Other observations

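The chains that pair with or stand in for the members differed between cell groups. Fcer1g, an ITAM adaptor chain that can take the place of the ζ chain, was at 297 against 1.05 CPM in WT and 330.4 against 0.792 CPM in KI, cluster 5 against clusters 3 and 4 of DN4, where Cd247 was at 278 and 309 CPM. Tyrobp, the related adaptor DAP12, was at 21.2 against 0.0958 CPM in WT, a log2 ratio of 7.79 (interval 5.21 to 13.13) on 1 UMI in clusters 3 and 4. Lyn, a Src-family kinase better known from B and myeloid cells, was at 25.4 against 1.92 CPM in WT and 23.3 against 1.10 CPM in KI. The CD8 β chain gene Cd8b1 was at 7.25 against 237 CPM and 7.07 against 174 CPM. Syk, which can do the work of Zap70 at the pre-TCR, passed the 20 CPM minimum only in KI, where it was at 7.66 against 23.9 CPM in clusters 3 and 4 against clusters 0 and 1 of DN3.

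Of the 8 receptor chain and coreceptor genes tested in KI over WT in clusters 3 and 4 of DN4, 7 had intervals below 0 and 0 above, and their median log2 ratio was −0.43 beside −0.02 over all genes, of which 1307 of 5149 had intervals below 0 and 985 above. In clusters 3 and 4 of DN3, 1 of 6 was below and 2 above, beside 720 and 998 of 5273 genes. Trbc2 is a constant gene of the β chain, with which the pre-TCR α chain pairs. In clusters 3 and 4 of DN4 it was at 367 CPM in KI against 592 CPM in WT, −0.69 (interval −0.74 to −0.64). In cluster 2 of DN4 it was at 709 against 1197 CPM. It was named after its values were seen. None of these was 2-fold apart. Counting of the 2 β constant genes, which are near-identical, may split their reads.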
